A study of Mus musculus with 9 samples.

Results

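The antioxidant enzyme genes of mouse adipose tissue were examined: the glutathione peroxidases and transferases, the peroxiredoxins, the thioredoxin genes, the superoxide dismutases, catalase, glutathione reductase and heme oxygenase 1. Genes were taken by name, as protein-coding genes whose symbols start with Gsta, Gstm, Gstt, Gstp, Gsto, Gstz, Mgst, Gpx, Prdx or Txn, or equal Sod1, Sod2, Sod3, Cat, Gsr, Gclc, Gclm, Gss, Hmox1 or Nqo1. This gave 31 of the 3958 genes in the count table. The annotation holds 67 such protein-coding symbols. The other 36, among them Nqo1 and the glutathione synthesis genes Gclc, Gclm and Gss, were not analysed here.

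Transcripts were counted by RNA sequencing of adipose tissue. All mice were male, of the strain C57BL/6J, and sampled at day 21. C57BL/6J is an inbred strain that becomes obese when fed a fatty diet. By the design text the study had a normal diet group, a high-fat diet group and a group on the high-fat diet with electroacupuncture, in which a current runs through inserted needles. The electroacupuncture libraries (EA, numbers 5, 7 and 8) are named as such in the labels, and the remaining 6 carry the title prefixes CPX (4, 6 and 8) and MPX (2, 5 and 7). The labels do not tie CPX or MPX to a diet, so no difference here has a diet direction, and neither the age of the mice nor the fat depot is given. Nothing in the labels states that every library is from its own mouse, so p-values reflect how these libraries spread, which may be technical in part. Their extraction protocol speaks of retinas. Of 18 retina marker genes 1 was in the table, Gnb1, which many tissues express, whereas 22 of 24 adipocyte markers were.

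These enzymes dispose of superoxide, peroxides and reactive electrophiles. Superoxide dismutases turn superoxide into hydrogen peroxide. Catalase, the glutathione peroxidases and the peroxiredoxins then reduce it, and the last 2 groups are recharged by glutathione or thioredoxin with electrons from NADPH. Glutathione transferases couple glutathione to electrophiles such as aldehydes from lipid peroxidation, and many of the genes are known targets of the transcription factor NRF2, which binds antioxidant response elements. Adipocytes, which burn and store fatty acids, secrete extracellular forms of both glutathione peroxidase and superoxide dismutase.

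Promoter sequence was available for 26 of the 31 genes in RefSeq (GRCm38.p6), in 36 windows that run from 250 bases before to 50 bases after an annotated start; Hmox1, Gsr, Sod3, Prdx6 and Txnl1 had no entry. The windows were searched on both strands for the core of the antioxidant response element, TGACNNNGC. It was found in 6 of the 36 windows (16.7%), each of a different gene, against 12.4% of all 32851 windows and 14.9% of the windows of genes in the table. The AP-1 site, TGACTCA, was found in 2 windows (5.56%), of Gstp1 and Prdx1, against 5.2% of all windows. The 6 core matches are shown because they are all that the windows hold, with the match in capitals and 10 bases on either side, written 5′ to 3′ on the strand of the gene.
Gsta3 (chr1:21240454-21240482, plus strand): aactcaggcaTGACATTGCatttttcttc
Mgst1 (chr6:138140461-138140489, plus strand): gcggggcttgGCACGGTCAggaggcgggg
Prdx1 (chr4:116685456-116685484, plus strand): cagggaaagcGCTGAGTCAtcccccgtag
Sod1 (chr16:90220696-90220724, plus strand): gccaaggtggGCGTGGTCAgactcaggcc
Txndc5 (chr13:38528034-38528062, minus strand): gcctcgccgcTGACGTGGCgctagccgcc
Txnrd1 (chr10:82859104-82859132, plus strand): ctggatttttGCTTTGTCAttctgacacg
The match of Gsta3 begins 121 bases before the start, that of Txndc5 138, that of Prdx1 133 and that of Txnrd1 92, while those of Mgst1 and Sod1 begin 56 bases before it. The match of Prdx1 also contains an AP-1 site, so the 2 motifs overlap there. A match describes the letters and does not show that a factor binds.

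The 250 bases before the start are also shown for Prdx5 and Gstm2, the pair with the smallest p-values among the genes whose EA and MPX values did not overlap, and for the Txnrd1 start that holds the match.
Prdx5 (chr19:6910107-6910356, minus strand): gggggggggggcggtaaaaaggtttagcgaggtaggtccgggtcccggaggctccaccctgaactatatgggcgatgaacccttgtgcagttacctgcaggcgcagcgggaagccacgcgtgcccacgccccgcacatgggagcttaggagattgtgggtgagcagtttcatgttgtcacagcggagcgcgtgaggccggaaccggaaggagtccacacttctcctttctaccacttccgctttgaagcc
Gstm2 (chr3:107986421-107986670, minus strand): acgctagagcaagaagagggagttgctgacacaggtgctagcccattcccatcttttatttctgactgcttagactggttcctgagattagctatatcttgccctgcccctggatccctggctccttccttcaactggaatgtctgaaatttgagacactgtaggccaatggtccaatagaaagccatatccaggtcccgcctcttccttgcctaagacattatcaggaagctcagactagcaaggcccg
Txnrd1 (chr10:82858956-82859205, plus strand): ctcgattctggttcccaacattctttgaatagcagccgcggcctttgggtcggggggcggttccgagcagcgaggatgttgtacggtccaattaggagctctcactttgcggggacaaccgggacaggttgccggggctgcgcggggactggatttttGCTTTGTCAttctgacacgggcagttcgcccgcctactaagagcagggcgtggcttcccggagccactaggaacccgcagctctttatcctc
Neither Prdx5 nor Gstm2 held the core in its window, and the other 2 Txnrd1 windows held none.

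Levels are given as CPM, a gene's count over the listed counts, put on the usual CPM scale after TMM scaling, a correction for differences in library composition. The listed counts per library ran from 12115183 to 14208853. They are sums over the most abundant genes and not sequencing depths, so these CPM exceed those that a complete gene table would give. The lowest count of any antioxidant gene in any library was 237, and the lowest total over the 9 libraries was 8953. All values below stand in the order CPX 4, 6 and 8, then MPX 2, 5 and 7, then EA 5, 7 and 8.

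The CPX libraries stood apart from each other. The 31 genes summed to 24460, 5536 and 12559 CPM in CPX, to 12430, 11273 and 12830 CPM in MPX and to 11876, 11810 and 9885 CPM in EA. CPX 4 held the highest value of 24 of the genes, and CPX 6 the lowest value of 19. In CPX 4, 16 of the 31 genes were at least 2-fold higher than in CPX 8, as were 11.1% of all 3958 genes. In CPX 6, 17 of the 31 were at least 2-fold below the mean of the other CPX libraries, against 25.8% of all genes. The highest value in MPX was under 2 times the lowest for 30 of the 31 genes, in EA for 25, and in CPX for 3.

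Sums of cell type markers also differed between libraries. Within CPX, the adipocyte markers and the mitochondrially encoded genes followed the order of these totals. The B cell and macrophage markers ran in the opposite order there. The 22 adipocyte markers in the table summed to 12816 CPM in CPX 6, to 75451 and 143260 CPM in the other CPX libraries, to between 78512 and 92021 CPM in MPX, and to between 49173 and 76410 CPM in EA. The 11 of 20 B cell and lymph node markers in the table summed to 592 to 11197 CPM in CPX, 770.3 to 1574 CPM in MPX and 2507 to 5680 CPM in EA, with the highest value in CPX 6. These sums understate the differences of single B cell markers. All 11 were higher in EA than in MPX, with a median log2 difference of 6.33, against 0.01 over all genes. Of the 11, 0 passed the edgeR test used below at an adjusted p under 0.05. The 18 of 20 macrophage markers in the table ran from 1915 to 7324 CPM in CPX, from 1907 to 5532 CPM in MPX and from 4022 to 9518 CPM in EA. None of these listed markers was at 0 in any library. The 10 of 13 mitochondrially encoded genes in the table summed to between 37678 and 151810 CPM in CPX, with the highest value in CPX 4, to between 41348 and 44353 CPM in MPX and to between 29893 and 49814 CPM in EA. The part of cell makeup in the differences below was not tested, and in bulk tissue fewer cells of a type and less RNA per cell cannot be told apart.

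**Figure D1:**
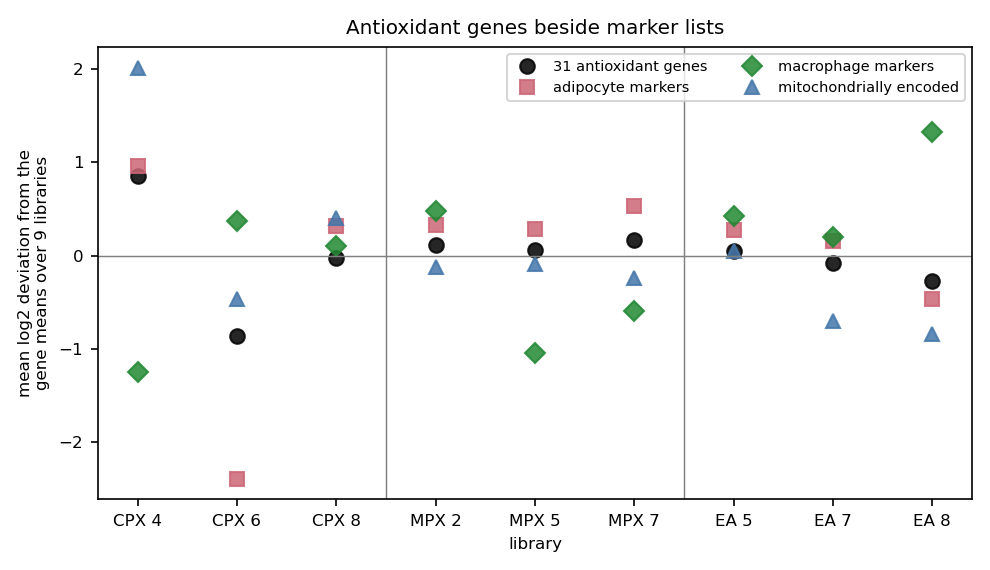
The mean log2 deviation of the antioxidant genes and of marker lists from each gene's mean over the 9 libraries (y axis) is plotted for each library (x axis), with 1 symbol per list. The antioxidant genes stand at 0.85 in CPX 4, -0.87 in CPX 6 and between -0.27 and 0.17 in the other libraries, and the adipocyte markers stand highest in CPX 4 (0.97) and lowest in CPX 6 (-2.40).

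**Figure D2:**
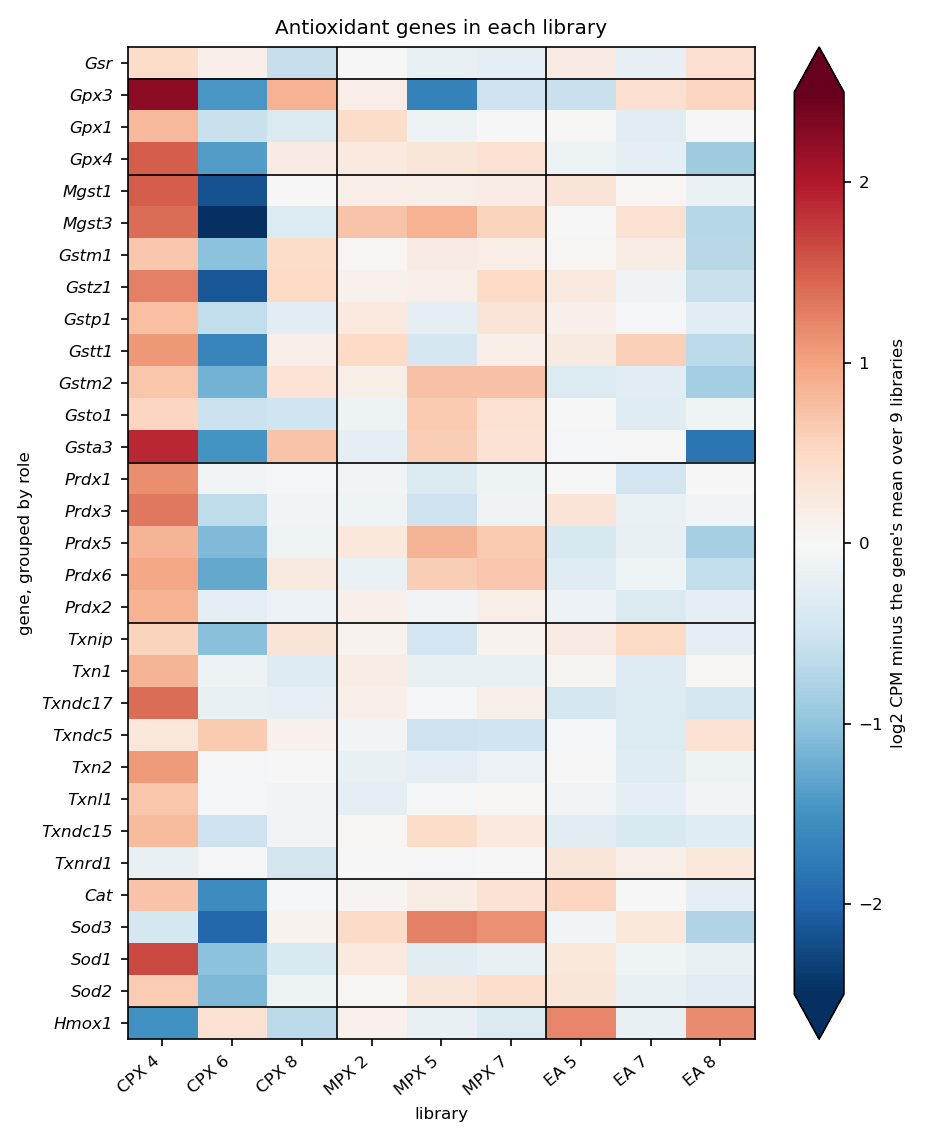
Each row is an antioxidant gene, grouped by role, each column a library, and the colour is the log2 CPM minus the gene's mean over the 9 libraries. CPX 4 holds the highest value of 24 genes and CPX 6 the lowest of 19, while MPX and EA libraries stand closer together.

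Per length of the gene model, the extracellular peroxidase Gpx3 had the highest mean level of the 31 genes, at 847 CPM per kilobase, followed by Txnip (637), Gpx1 (541), Gpx4 (450.1), Mgst1 (392) and Cat (389.9). The lowest mean levels were those of Txnrd1 (17.0 CPM per kilobase), Gsta3 (18.2), Txndc15 (20.1) and Sod2 (20.9). The ranges over the 9 libraries of neighbours in this order all overlapped. Gpx3 itself ranged 15.1-fold over the libraries, the second widest range after Mgst3 (18.6-fold). Txnrd1 had the narrowest, 1.70-fold, and 10 of the 31 genes ranged more than 5-fold.

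**Figure D3:**
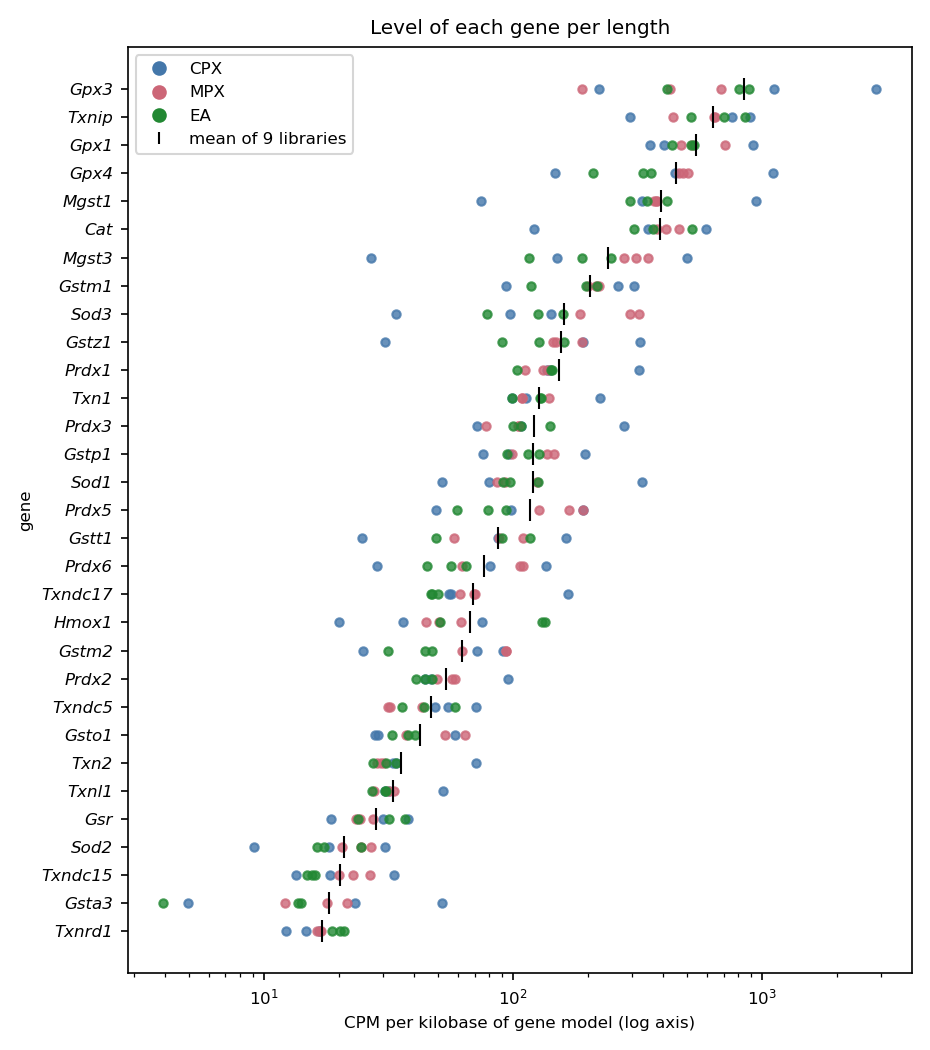
Points are the level of each antioxidant gene in each library in CPM per kilobase of gene model (log x axis), coloured by group, and black ticks are the means over the 9 libraries. The means run from 847 CPM per kilobase for Gpx3 down to 17.0 for Txnrd1.

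EA was compared with MPX, and with CPX, to ask how antioxidant transcripts stood after electroacupuncture, and MPX with CPX, the groups without it. In EA against MPX, Sod3, Prdx5 and Gstm2 were lower by 2.20-, 2.09- and 2.03-fold and Hmox1 was higher by 2.01-fold, but none of these differences passed the test. By edgeR's quasi-likelihood test, 0 of the 31 genes had an adjusted p under 0.05, and neither did any of the 3958 genes (0%). DESeq2, limma voom and edgeR with only these groups fitted also called 0 of the 31, against 1.24%, 0% and 2.12% of all genes. At an unadjusted edgeR p under 0.05 there were 2 of the 31, both lower in EA, against 5.1% of all genes, of which 2.1% were higher and 3.01% lower. These counts depended on the CPX libraries in the fit. With only EA and MPX fitted, 1 of the 31 was higher and 9 were lower at such a p, against 32.1% of all genes. The log2 differences of the 31 genes ran from -1.14 to 1.01 with a median of -0.18, against a median of 0.01 over all genes. Of them 11 were positive and 20 negative, where 51.4% and 48.6% of all genes were. With library totals alone in place of TMM, which moved the median of all genes to 0.11, there were 15 positive and 16 negative. The EA and MPX values of 9 genes did not overlap, 1 higher (Txnrd1) and 8 lower (Gpx4, Gstm2, Mgst3, Prdx2, Prdx5, Sod3, Txndc15 and Txndc17), which is 29% of the 31 against 40.5% of all genes (21.5% higher and 19% lower).

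In EA against CPX, 7 of the 31 differences were positive and 24 negative, where 39% and 61% of all genes were, and the median was -0.36 (all genes -0.09). None passed (edgeR, 0 of the 31, smallest adjusted p = 0.997, and 0% of all genes). DESeq2 and limma voom called 0 of the 31, against 0.127% and 0% of all genes. At an unadjusted edgeR p under 0.05 there were 3 of the 31, Txnrd1 and Hmox1 higher and Txndc17 lower, against 2.96% of all genes (0.96% higher and 2% lower). The values of 2 did not overlap, Txnrd1 higher and Txndc17 lower in EA, against 7.18% of all genes (2.1% higher and 5.08% lower). The median rested on single CPX libraries: it was 0.18 without CPX 4, where 21 differences were positive, and -0.70 without CPX 6, where 4 were. With library totals alone, 13 were positive and 18 negative, and the median of all genes was 0.10.

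In MPX against CPX, 13 differences were positive and 18 negative, where 40.7% and 59.3% of all genes were, and the median was -0.17 (all genes -0.11). Of the 31, 0 passed (edgeR, smallest adjusted p = 0.362), as did 0% of all genes. DESeq2 and limma voom called 0 of the 31, against 5.1% and 0% of all genes. Unadjusted edgeR p-values under 0.05 were found for 2, Sod3 higher and Txndc5 lower in MPX, against 13.2% of all genes (4.98% higher and 8.21% lower). Values did not overlap for 3, Sod3 higher and Txndc5 and Txn2 lower, against 16.2% of all genes (8.46% higher and 7.71% lower). Here too the median turned, to 0.57 without CPX 4, where 26 differences were positive, and it was -0.43 without CPX 6, where 6 were. With library totals alone 20 of the 31 were positive and the median was 0.07. EA against MPX shares its MPX libraries with this comparison, so the 2 are not independent.

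**Figure D4:**
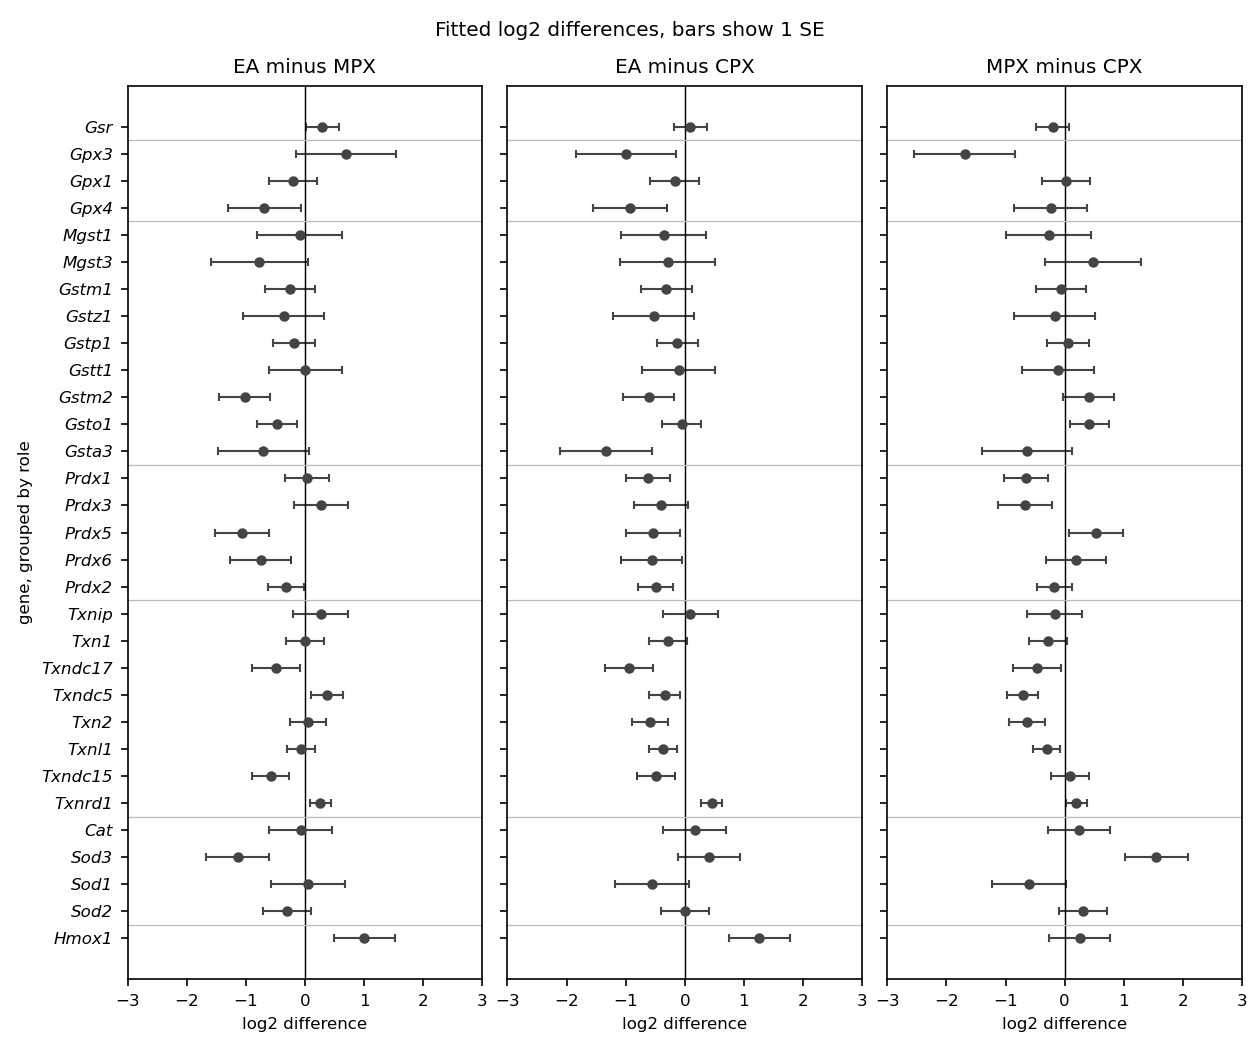
Points are the fitted log2 differences (x axis) of the 31 antioxidant genes (y axis, grouped by role) in EA minus MPX, EA minus CPX and MPX minus CPX, and bars are 1 SE, derived from the test statistic. No difference passed the adjusted threshold, and the bars are widest for Gpx3, Mgst3 and other genes that vary within CPX.

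The superoxide dismutases differed in level and in pattern. Sod3 (chr5:52363791-52371418, mm10, plus strand), which encodes the secreted form, stood at 365, 127 and 530.3 CPM in CPX, 695, 1197 and 1103 CPM in MPX, and 472, 595 and 295 CPM in EA. All MPX values lay above all EA and all CPX values, and EA overlapped CPX. Its group means were 341 ± 203, 998 ± 267 and 454 ± 151 CPM (mean ± SD, n = 3 per group, here and below). The log2 difference was -1.14 (SE 0.53) in EA minus MPX (edgeR adjusted p = 0.775) and 1.55 (SE 0.53), or 2.93-fold, in MPX minus CPX (edgeR adjusted p = 0.362). Both kept their sign in every alternative run, from -1.38 to -0.90 and from 0.94 to 2.05. In EA minus CPX it was 0.41 (SE 0.52).

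Sod1, the cytosolic copper-zinc enzyme, stood at 1308, 205 and 317 CPM in CPX, 494, 342 and 368 CPM in MPX, and 501, 384 and 363 CPM in EA. Apart from CPX 4, which was high, and CPX 6, which was low, its values were close, with a log2 difference of 0.05 (SE 0.62) in EA minus MPX. Sod2, the mitochondrial manganese enzyme, stood at 307, 90.8 and 182 CPM in CPX, 206, 244 and 269.6 CPM in MPX, and 246, 174 and 163 CPM in EA. The groups overlapped, and the log2 difference in EA minus MPX was -0.30 (SE 0.41). The ratio of Sod3 to Sod1 within a library, chosen after the values were seen, does not depend on scaling. It was 0.279, 0.618 and 1.67 in CPX, 1.41, 3.50 and 3.0 in MPX, and 0.941, 1.55 and 0.812 in EA, so MPX 2 lay below EA 7 and CPX 8.

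Catalase, the peroxisomal enzyme that splits hydrogen peroxide, stood at 1552, 318 and 909 CPM in CPX, 989.9, 1071 and 1214 CPM in MPX, and 1364, 955 and 796 CPM in EA. EA values lay on both sides of MPX, and the fitted log2 difference was -0.07 (SE 0.53). The widest spread was again within CPX, with an SD of 617 CPM around 926 CPM.

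Of the 3 glutathione peroxidases in the table, 1 had a positive difference and 2 had negative ones in EA minus MPX, and all 3 had negative differences in EA minus CPX (median -0.92). That direction rested on CPX 4: without it all 3 peroxidases were positive (median 0.07). Gpx3 (chr11:54902453-54910377, mm10, plus strand), the secreted selenoenzyme, stood at 5210.5, 403 and 2017 CPM in CPX, 1243, 344 and 771 CPM in MPX, and 749.5, 1467 and 1609 CPM in EA. Its lowest value was in MPX 5 and its highest in CPX 4, and all groups overlapped. The log2 difference was 0.70 (SE 0.84) in EA minus MPX and -1.69 (SE 0.86) in MPX minus CPX, neither past the threshold (edgeR adjusted p = 0.807 and 0.412). Gpx3 in MPX minus CPX was -0.60 without CPX 4 and -2.20 without CPX 6.

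Gpx4, which reduces lipid peroxides in membranes and guards against ferroptosis, stood at 1911, 254 and 774 CPM in CPX, 798, 826 and 871 CPM in MPX, and 616, 574 and 361 CPM in EA. Every EA value lay below every MPX value, with means of 517 ± 137 and 831 ± 36.9 CPM (SD, n = 3 per group). The log2 difference of -0.69 (SE 0.62) did not pass the threshold (edgeR adjusted p = 0.776). The transcribed pseudogene Gpx4-ps2 was counted at 0.179 to 0.215 of Gpx4 in each library, and reads of such near copies could have been split, so the level of Gpx4 is uncertain. Gpx1, the cytosolic and mitochondrial peroxidase, stood at 1321, 511 and 580.5 CPM in CPX, 1022, 682 and 755 CPM in MPX, and 766, 627 and 747 CPM in EA. Its groups overlapped, with a log2 difference of -0.20 (SE 0.41) in EA minus MPX. The ratio of Gpx3 to Gpx4 was 2.73, 1.59 and 2.61 in CPX, 1.56, 0.417 and 0.885 in MPX, and 1.22, 2.55 and 4.46 in EA. MPX 2 overlapped EA, and this ratio too was chosen after the values were seen.

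The 9 glutathione transferases included 8 with negative differences in EA minus MPX (median -0.36) and 9 with negative differences in EA minus CPX (median -0.31). Without CPX 4, 6 of the 9 transferases were positive in EA minus CPX (median 0.39). Gstm2 (chr3:107981702-107986453, mm10, minus strand), a cytosolic mu class transferase, stood at 153, 42.1 and 121 CPM in CPX, 105, 157 and 157 CPM in MPX, and 74.6, 79.0 and 52.7 CPM in EA. All EA values lay below all MPX values, and CPX ran from below EA (CPX 6) to within the MPX range. The means were 139.5 ± 30.2 CPM in MPX and 68.8 ± 14.1 CPM in EA (SD, n = 3 per group). EA minus MPX was -1.02 (SE 0.44) on the log2 scale, with an unadjusted p of 0.0471 and an adjusted p of 0.775 by edgeR, and it stayed between -1.23 and -0.86 in every alternative run.

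Its neighbour Gstm1, of the same class, stood at 450.2, 138 and 387 CPM in CPX, 294, 325 and 316 CPM in MPX, and 289, 321 and 174 CPM in EA. EA 7 lay within the MPX range, and the log2 difference in EA minus MPX was -0.25 (SE 0.43). The mu class genes are near copies of each other, so reads could have been split between them. Mgst1, a membrane-bound transferase with peroxidase activity, stood at 1909, 149 and 665 CPM in CPX, 754, 742 and 761 CPM in MPX, and 834, 693 and 595 CPM in EA. The MPX values had an SD of 9.78 CPM, EA values lay on both sides of them, and the log2 difference was -0.09 (SE 0.72). Mgst3, another membrane-bound member, stood at 547, 29.4 and 164 CPM in CPX, 341, 383 and 307 CPM in MPX, and 207, 271 and 127 CPM in EA. Each EA value lay below each MPX value, and the log2 difference of -0.77 (SE 0.82) did not pass (edgeR adjusted p = 0.799).

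Gsta3, an alpha class transferase, stood at 226, 21.6 and 100.3 CPM in CPX, 52.5, 93.8 and 78.0 CPM in MPX, and 59.6, 61.1 and 17.1 CPM in EA. EA 8 was the lowest of the 9 libraries and the groups overlapped. The log2 difference was -0.70 (SE 0.76) in EA minus MPX and -1.33 (SE 0.77) in EA minus CPX, the most negative of the 31 genes in that comparison. The latter was -0.41 without CPX 4 and -1.84 without CPX 6. The other 4 transferases, Gsto1, Gstp1, Gstt1 and Gstz1, overlapped between EA and MPX. Gstz1, the maleylacetoacetate isomerase of tyrosine breakdown, stood at 1643, 155 and 969.8 CPM in CPX, 735, 759 and 965 CPM in MPX, and 814, 644 and 461 CPM in EA.

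The 5 peroxiredoxins divided in EA minus MPX into 2 positive and 3 negative differences (median -0.32), and all 5 were negative in EA minus CPX (median -0.54). Without CPX 4, 3 of the 5 peroxiredoxins were positive there, with a median of 0.02. Prdx5 (chr19:6906697-6910106, mm10, minus strand), found in mitochondria, peroxisomes and cytosol, stood at 406, 105 and 210.3 CPM in CPX, 272, 409.9 and 358 CPM in MPX, and 170.3, 200.1 and 128 CPM in EA. All EA values lay below all MPX values, and CPX 4 reached the MPX level. The means were 347 ± 69.7 CPM in MPX and 166 ± 36.4 CPM in EA (SD, n = 3 per group). EA minus MPX was -1.06 (SE 0.46) on the log2 scale, with an unadjusted p of 0.0481 and an adjusted p of 0.775 by edgeR, and it stayed between -1.25 and -0.90 in every alternative run.

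Prdx3, the mitochondrial form, stood at 413, 106 and 159 CPM in CPX, 155, 115 and 156 CPM in MPX, and 207, 147 and 159 CPM in EA. EA and MPX overlapped, and the log2 difference was 0.27 (SE 0.46), of the opposite sign to that of Prdx5. In MPX minus CPX Prdx3 was at -0.67 (SE 0.46), and at 0.13 without CPX 4. The ratio of Prdx5 to Prdx3, a pair chosen after the values were seen, was 0.983, 0.988 and 1.32 in CPX, 1.76, 3.55 and 2.29 in MPX, and 0.821, 1.36 and 0.803 in EA. Every MPX library was above every other library in this ratio, and EA overlapped CPX.

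Prdx6, which also has phospholipase activity, stood at 651, 137 and 387 CPM in CPX, 298, 513 and 528 CPM in MPX, and 269.6, 311 and 217 CPM in EA. EA 7 lay just above MPX 2, and the log2 difference was -0.75 (SE 0.51). Prdx1, the main cytosolic form, stood at 978, 416 and 426 CPM in CPX, 420.1, 339 and 401 CPM in MPX, and 438, 316 and 434 CPM in EA. Apart from CPX 4 the libraries were close, and the log2 difference was 0.03 (SE 0.37) in EA minus MPX. Against CPX, Prdx1 differed by -0.62 (SE 0.37) in EA and by -0.65 (SE 0.37) in MPX, and without CPX 4 by -0.08 and -0.09. Prdx2, abundant in red blood cells, stood at 290.4, 135 and 142 CPM in CPX, 173, 151 and 179 CPM in MPX, and 144, 124 and 136 CPM in EA, with every EA value below every MPX value.

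The 8 thioredoxin genes had 4 positive and 4 negative differences in EA minus MPX (median 0.03). Txnrd1 (chr10:82833951-82897712, mm10, plus strand), the cytosolic thioredoxin reductase and a selenoprotein, stood at 104, 118 and 87.0 CPM in CPX, 120.0, 115 and 118 CPM in MPX, and 148, 133 and 143 CPM in EA. All EA values lay above all other libraries. The means were 103 ± 15.3, 118 ± 2.46 and 141 ± 7.74 CPM (SD, n = 3 per group), a difference of 1.20-fold from MPX and 1.37-fold from CPX. The log2 difference was 0.26 (SE 0.18) in EA minus MPX (edgeR adjusted p = 0.775) and 0.46 (SE 0.18) in EA minus CPX, where the unadjusted p was 0.0325 and the adjusted p was 0.997 by edgeR. In every alternative run these stayed positive, from 0.22 to 0.36 and from 0.35 to 0.69.

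Its substrate Txn1, cytosolic thioredoxin, stood at 234, 119 and 104 CPM in CPX, 147, 114 and 114 CPM in MPX, and 136, 104 and 134 CPM in EA. The means of MPX and EA were both 125 CPM, and the log2 difference was -0.00 (SE 0.32). Txn2, the mitochondrial thioredoxin, stood at 298, 139 and 143 CPM in CPX, 125, 119 and 128 CPM in MPX, and 142, 115 and 129.7 CPM in EA. All CPX values lay above all MPX values, with a log2 difference of -0.64 (SE 0.31) in MPX minus CPX (edgeR adjusted p = 0.397). In EA minus CPX Txn2 was at -0.58 (SE 0.31), and without CPX 4 these values were -0.15 and -0.12. Txnip, the arrestin-like protein that binds and inhibits thioredoxin and is induced by glucose, stood at 2782, 920.5 and 2355 CPM in CPX, 2019, 1364 and 2000.2 CPM in MPX, and 2185, 2668 and 1619.9 CPM in EA. Groups overlapped, and the log2 difference in EA minus MPX was 0.27 (SE 0.46).

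Txndc5 (chr13:38500079-38528824, mm10, minus strand), a disulfide isomerase of the endoplasmic reticulum, stood at 247, 318 and 219 CPM in CPX, 194, 141 and 144 CPM in MPX, and 197, 161 and 263 CPM in EA. It was the only one of the 31 genes that was highest in CPX 6, and all CPX values lay above all MPX values. The log2 difference in MPX minus CPX was -0.71 (SE 0.27), or 1.64-fold lower, with an unadjusted p of 0.0265 and an adjusted p of 0.362 by edgeR, and it stayed between -0.84 and -0.43 in every alternative run. Plasma cells, which fold antibodies, are rich in this isomerase. The 4 of 10 plasma cell markers in the table summed to 3209 to 19809 CPM in CPX, 773 to 1450 CPM in MPX and 1675 to 6334 CPM in EA. Their part in the difference was not tested.

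Txndc17, a small cytosolic oxidoreductase, stood at 221, 74.6 and 72.9 CPM in CPX, 92.3, 81.2 and 93.3 CPM in MPX, and 62.0, 66.4 and 62.4 CPM in EA. EA lay below all other libraries, and the log2 difference was -0.48 (SE 0.41) from MPX and -0.95 (SE 0.41) from CPX, where the unadjusted p was 0.0483 and the adjusted p 0.997 by edgeR. In EA minus CPX the difference ran from -1.22 (without CPX 8) to -0.20 (CPX 4 and CPX 6 left out) over the alternatives. CPX 4 stood far above the other CPX libraries, which lay near EA. Txndc15, a membrane protein with a thioredoxin domain, stood at 146, 59.1 and 80.8 CPM in CPX, 87.5, 117 and 99.9 CPM in MPX, and 70.5, 65.2 and 68.3 CPM in EA. All EA values lay below all MPX values, and EA minus MPX was -0.58 on the log2 scale (SE 0.31, edgeR adjusted p = 0.775). Txnl1, a proteasome-bound thioredoxin-like protein, ranged from 69.4 CPM in EA 7 to 133 CPM in CPX 4.

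Hmox1 (chr8:75093621-75100589, mm10, plus strand), the inducible heme oxygenase, which breaks heme down to biliverdin, iron and carbon monoxide, stood at 35.0, 132 and 63.3 CPM in CPX, 109, 88.0 and 78.2 CPM in MPX, and 235, 88.8 and 228 CPM in EA. EA 5 and EA 8 were above all other libraries, whereas EA 7 lay within MPX. The means were 76.6 ± 49.6, 91.6 ± 15.5 and 184 ± 82.6 CPM (SD, n = 3 per group). The log2 difference was 1.01 (SE 0.52) in EA minus MPX and 1.26 (SE 0.52), or 2.40-fold, in EA minus CPX, with adjusted p-values of 0.775 and 0.997 by edgeR. It was positive in every alternative run, from 0.77 to 1.34 and from 0.93 to 1.89. Macrophages are a known source of this enzyme, and the macrophage markers stood on average at 0.43, 0.20 and 1.32 above their gene means in EA 5, 7 and 8 on the log2 scale, at 0.48, -1.05 and -0.60 in MPX, and at -1.25, 0.37 and 0.10 in CPX. The part of these markers in the difference was not tested.

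Gsr, which returns oxidised glutathione to its reduced form, stood at 104, 82.9 and 51.0 CPM in CPX, 75.5, 67.1 and 64.2 CPM in MPX, and 87.6, 65.5 and 101 CPM in EA. The groups overlapped, and the log2 difference in EA minus MPX was 0.30 (SE 0.28).

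**Figure D5:**
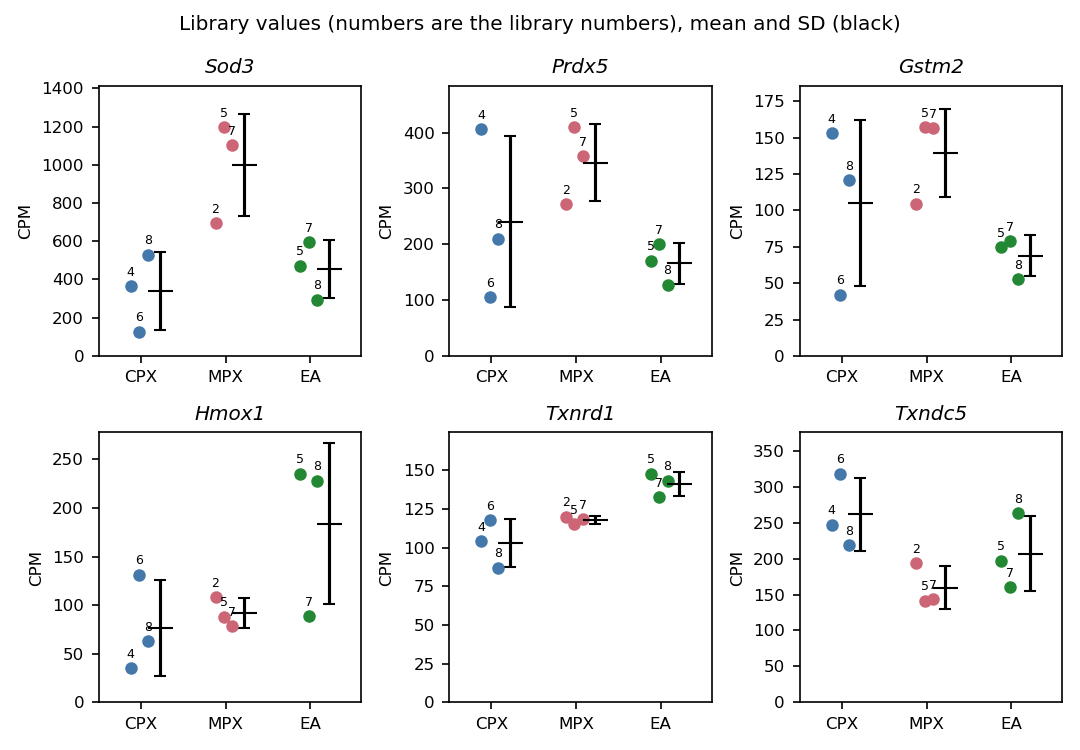
Each panel shows the CPM (y axis) of 1 gene in each library by group (x axis), with the library numbers beside the points and the mean and SD over 3 libraries in black. Sod3, Prdx5 and Gstm2 are lower in all EA than in all MPX libraries, Txnrd1 is highest in EA, Hmox1 is high in EA 5 and EA 8 but not in EA 7, and Txndc5 is lower in all MPX than in all CPX libraries.

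The supply lines of these enzymes were described through lists of further genes. One list held enzymes that make NADPH together with other pentose phosphate enzymes and NAD kinase. Of the 12 of its 21 genes in the table, 0 passed in any comparison by edgeR's adjusted p. In EA minus MPX 2 of them, both lower, had an unadjusted p under 0.05, the NADPH-making pentose phosphate enzymes G6pdx and Pgd, where 3.01% of all genes were lower at such a p. G6pdx stood at 251, 94.6 and 244 CPM in CPX, 286, 393 and 350.3 CPM in MPX, and 190.4, 227 and 133 CPM in EA, a log2 difference of -0.90 (SE 0.39) with no overlap between EA and MPX. Pgd had means of 459 ± 133 CPM in MPX and 230.7 ± 47.1 CPM in EA (SD, n = 3 per group), differing by -0.99 on the log2 scale (SE 0.43), also without overlap. The median of the 12 was -0.18, as for the antioxidant genes themselves.

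Another list held 38 genes of glutathione supply and turnover, with glutaredoxins, glyoxalase enzymes and related proteins. Of the 18 in the table, 0 passed. At an unadjusted edgeR p under 0.05 there was 1 in all, Slc3a2, in MPX minus CPX, where 13.2% of all genes had one. Slc3a2, the heavy chain of the cystine importer, averaged 247 ± 47.2 CPM in MPX, 142 ± 17.7 CPM in CPX and 179.8 ± 5.90 CPM in EA (SD, n = 3 per group), and its log2 difference in MPX minus CPX was 0.80 (SE 0.20, edgeR adjusted p = 0.362). Among 20 of 34 NRF2 regulators and targets, 0 passed, and at an unadjusted p under 0.05 there was 1 lower in EA minus MPX (3.01% of all genes), Slc48a1, a heme transporter, whose means were 441 ± 137 CPM in MPX and 189.6 ± 45.0 CPM in EA (SD, n = 3 per group). In MPX minus CPX 3 of the 20 had such a p, against 13.2% of all genes, with Mafg and Nfe2l1 higher and Cul3 lower. Cul3 was also the only one in EA minus CPX (2.96% of all genes), again lower. The medians of this list were -0.08, -0.00 and 0.09 in EA minus MPX, EA minus CPX and MPX minus CPX.

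A list of 25 genes held other selenoproteins and the machinery that makes them. The 6 in the table were all selenoprotein genes, and 0 passed. At an unadjusted edgeR p under 0.05 there were 3 of the 6 in EA minus CPX, Selenof, Selenot and Selenow, all lower, against 2.96% of all genes. Selenow overlapped between EA and CPX, and both Selenof and Selenow were highest in CPX 4 (637 and 771 CPM). In MPX minus CPX there was 1, Selenot, against 13.2%. Selenot averaged 228.6 ± 20.4 CPM in EA, 213.5 ± 11.9 CPM in MPX and 334 ± 48.8 CPM in CPX (SD, n = 3 per group), and its value in MPX minus CPX was -0.65 on the log2 scale (SE 0.20, edgeR adjusted p = 0.362). Of 16 of 28 further genes of redox repair, metal binding and related functions 0 passed. In EA minus MPX 3 of the 16 had an unadjusted edgeR p under 0.05, against 5.1% of all genes, with Pdia4 higher and Cyb5r3 and Pon2 lower. In MPX minus CPX 3 had one, Cyb5r3, Hsd17b4 and Qsox1, all higher, against 13.2% of all genes. Pon2, a lactonase that limits lipid peroxidation, had means of 160.0 ± 23.1 CPM in MPX and 90.6 ± 14.4 CPM in EA (SD, n = 3 per group), differing by -0.82 on the log2 scale (SE 0.27). A last list held oxidases and other enzymes that can give superoxide or hydrogen peroxide, with the Rac GTPases that activate NADPH oxidase. The table held 14 of its 31 genes, and 0 passed. At an unadjusted edgeR p under 0.05 there was 1 lower in EA minus MPX, against 5.1% of all genes, and 2 lower in MPX minus CPX (Cyp2e1 at -2.09 and the GTPase Rac2 at -3.43 on the log2 scale), against 13.2%. Both overlapped between MPX and CPX. Cyp2e1 stood at 7563, 620 and 2261 CPM in CPX and at 646, 1185 and 629 CPM in MPX. Rac2 stood at 12.2, 834 and 33.5 CPM in CPX and at 38.7, 23.0 and 19.7 CPM in MPX. The median difference of this list was 0.11 in EA minus MPX, 0.17 in EA minus CPX and 0.06 in MPX minus CPX.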

How the data were processed

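RNA of 9 adipose libraries, 3 in each of 3 groups, was measured by RNA sequencing. The authors deposited a table of raw counts with a row for each gene and a column for each library, per the file headers. Reads were aligned with HISAT2 2.0.5 to mm10, per the submitters' processing notes. Neither the program that made the counts nor its strand setting is named there, so reads of near copies, overlapping genes and antisense genes cannot be separated. The table used here lists 3958 genes by falling total count, down to 8471, so genes below that were not analysed here. For 10 genes a name turned into a date, and for 1 an incomplete name, was restored from the gene ID. Positions are those of the authors' table, and 29 of the 31 were the same in GENCODE M21 (not Gstp1 and Txnl1).

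Counts were tested with edgeR 4.0.16 (R 4.3.3): 1 fit of all 9 libraries with 1 coefficient for each group, TMM scaling (a factor of 0.753 in CPX 4), filterByExpr, which removed no gene, robust quasi-likelihood estimation, and Benjamini-Hochberg adjustment over 3958 genes with a threshold of 0.05. The common biological coefficient of variation, over all groups, was 40.2%. Each SE is the absolute log2 difference divided by the square root of the F statistic of its quasi-likelihood test. An exact permutation test of 3 libraries against 3 cannot give a two-sided p below 0.1 and was not used. The script was tested on simulated data with the same spread for every gene and no deviating library. The CPX libraries here differ from that, so the simulation does not show how the fit performs on them. Within each group no library duplicated another: chi-square divided by its degrees of freedom was 71.5 for the closest pair, MPX 5 and MPX 7. Libraries of different groups were not compared in this way. Alternatives were other scalings and filters, DESeq2 1.42.0, limma voom (limma 3.58.1), the robust option off, fewer libraries, each library left out, and the library number as a block. The rule for named genes gave values in every library for genes past the threshold, for the 6 with the smallest p in each comparison, and for a fixed set of well-known enzymes; for the latter the text prints the fitted difference of some comparisons only. Of each further list up to 3 genes with the smallest p were named; Mgst3, Gstz1 and Prdx2 are examples from the remainder, chosen after their values were seen. The antioxidant genes and all lists were chosen with earlier results of these data known.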

Additional observations from a re-analysis of the deposited data

How the results depend on the processing

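No antioxidant gene passed edgeR's adjusted threshold under any alternative except the replicate block on EA and MPX, which called 1, Gstm2 (-1.07, edgeR adjusted p = 0.0437). EA 8 and MPX 2 share their numbers with no library of the other group. They therefore do not inform the blocked difference, which rests on numbers 5 and 7 alone, and so do all calls of that fit. The labels do not say that equal numbers pair libraries. The deviations of equal-numbered EA and MPX libraries correlated at 0.022 (number 5) and 0.125 (number 7), and those of EA 8 and CPX 8 at -0.506. Such correlations cannot show whether libraries were paired, so pairing stays unknown. Of the 31 genes, 23 kept the sign of EA minus MPX in all 21 alternatives, 12 that of EA minus CPX and 9 that of MPX minus CPX in all 20. The member median in EA minus MPX ran from -0.28 to -0.08 with 1 library left out. In EA minus CPX it ran from -0.70 to 0.18 (without CPX 4), and in MPX minus CPX from -0.43 to 0.57 (without CPX 4). Over all genes, the EA minus MPX calls rose from 0 to 49 with DESeq2, 84 with only the groups compared, 80 with CPX 4 and CPX 6 left out and 145 with the replicate block. With 1 library left out they ran from 0 to 23 (without CPX 6). In EA minus CPX the calls were 5 with DESeq2 and ran from 0 to 12 (without CPX 6), and in MPX minus CPX they were 201 with DESeq2 and ran from 0 to 168 (without CPX 8). In the main fit all groups shared the estimate of each gene's spread, so the spread within CPX also entered the SE and p of EA minus MPX. Its part in these changes of the calls was not tested. Filters removed no gene and say nothing about stability. Turning the robust option off kept the signs of all 31 genes, and so did leaving out any EA library in MPX minus CPX. The counts of alternatives thus include several that could hardly move a sign. Every antioxidant gene had at least 237 counts in every library. Counting error is therefore small beside the common spread between libraries, a biological coefficient of variation of 40.2% that includes the CPX libraries. Within MPX or EA some genes spread far less, such as Mgst1 (1.30%) and Txnrd1 (2.09%) in MPX. For such genes counting error need not be small beside the spread within the group.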
